A study of Mus musculus with 8 samples.

Results

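The 3 mouse genes that encode the c-subunit of mitochondrial ATP synthase, Atp5g1, Atp5g2 and Atp5g3, were compared in bulk RNA-seq of brown adipose tissue (BAT) from 4 WT and 4 Cd36KO mice. They are 3 of the 31053 genes in the count table, of which 17367 had any count. The set was chosen by its readout in these same libraries: Atp5g1 was selected on its lower level in Cd36KO BAT, next to oxidative phosphorylation (OXPHOS) genes of which most were higher. The Cd36KO against WT values of the 3 genes are therefore a description, and no p-value is given for them.

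Both groups are labelled C57BL6/J, BAT, with an age of 8 weeks, and the control group is labelled WT. The Cd36KO label refers to CD36, a fatty acid transporter and scavenger receptor. The study made a germline knockout and a myeloid-specific knockout (floxed CD36 crossed to a Csf1r-driven Cre), attributes the BAT transcriptome to the second, and gives a later age in its methods for those mice. The labels call the material stromal vascular fraction, but the adipocyte marker list (Adipoq, Plin1, Fabp4, Lipe, Pnpla2 and Cfd) summed to 12041 to 20693 CPM (counts scaled to a common library total) over the 8 libraries, against 509 to 800 CPM for the stromal progenitor list and 209 to 332 CPM for the macrophage list.

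Total counts were 2679785 to 4097953 per library. Cd36 itself ranged from 2412 to 3505 normalized counts (counts divided by the library's median-of-ratios size factor) in the WT libraries and from 1926 to 2384 in the Cd36KO libraries, so that the groups did not overlap and the transcript was present in every library. The deleted part of the gene is not given in the sources used here. The methods state that all mice were male, whereas Xist was counted in all 8 libraries (772 to 1588 counts) and 4 Y-linked genes together had 0 to 3 counts per library. One of the Cd36KO columns was deposited with no replicate number; it is named the unnumbered Cd36KO library below. The study's legend for these data gives 4 mice per group, the number of libraries in each.

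ATP synthase makes ATP from the proton gradient that the respiratory chain builds across the inner mitochondrial membrane. Its membrane part, F0, holds a ring of identical c-subunits that turns as protons pass, and the central stalk carries that rotation into the catalytic F1 head. Separate nuclear genes encode the same c-subunit. Their precursors differ in the transit peptide that directs import and is then removed, and the mature protein is the same. In brown adipocytes UCP1 lets protons return without passing through ATP synthase, BAT holds little ATP synthase for its amount of respiratory chain, and the supply of c-subunit, in particular from Atp5g1, has been linked to that low content.

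In GENCODE M21 (GRCm38), Atp5g1 (ENSMUSG00000006057) lies at chr11:96068852-96075670, Atp5g2 (ENSMUSG00000062683) at chr15:102662864-102672352 and Atp5g3 (ENSMUSG00000018770) at chr2:73908447-73911326, all on the minus strand. Their coding sequences are 408, 438 and 423 bases long. The last 225 coding bases of each gene, 75 codons up to the stop codon, are shown because they carry the mature c-subunit and show how transcripts that spell the same protein stay separable by sequence. Capitals mark the 57 positions at which the 3 genes do not all have the same base, 52 of them at the last position of a codon.
Atp5g1: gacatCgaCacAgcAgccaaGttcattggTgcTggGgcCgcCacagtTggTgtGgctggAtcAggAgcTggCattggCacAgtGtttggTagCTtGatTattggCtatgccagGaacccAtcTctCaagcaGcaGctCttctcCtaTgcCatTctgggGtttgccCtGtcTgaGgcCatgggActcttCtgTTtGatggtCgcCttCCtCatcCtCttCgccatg
Atp5g2: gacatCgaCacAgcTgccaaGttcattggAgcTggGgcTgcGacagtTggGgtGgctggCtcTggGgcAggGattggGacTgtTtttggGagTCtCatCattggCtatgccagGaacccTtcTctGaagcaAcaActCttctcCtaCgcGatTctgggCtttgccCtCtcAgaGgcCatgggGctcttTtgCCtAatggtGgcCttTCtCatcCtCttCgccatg
Atp5g3: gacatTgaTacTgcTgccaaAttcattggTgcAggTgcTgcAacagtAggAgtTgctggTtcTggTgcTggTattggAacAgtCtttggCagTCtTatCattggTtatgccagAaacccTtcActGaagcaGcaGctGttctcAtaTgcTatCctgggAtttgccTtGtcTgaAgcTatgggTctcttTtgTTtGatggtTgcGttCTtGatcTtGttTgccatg

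Over this stretch Atp5g1 and Atp5g2 differed in 32 of 75 codons, Atp5g1 and Atp5g3 in 42, and Atp5g2 and Atp5g3 in 44, and 0 of these codon differences changed the encoded residue. Base identity was 84.9%, 80% and 78.7% for these pairs, against 70.4%, 63.4% and 65.4% in the rest of the coding sequence, which holds the transit peptide. The longest run shared by any pair of transcripts was 21 bases (Atp5g1 and Atp5g2), the last coding bases with the stop codon, and the other pairs shared 12 bases. The reads were 75 bases long, and no 75-base window of one member occurred in another.

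Copies elsewhere in the genome were the larger overlap. Of the 75-base windows of the Atp5g2 transcripts with a complete coding sequence, 441 and 731 bases long, 100% and 86.9% also occurred in an annotated transcript of another gene, chiefly the processed pseudogenes Gm10175 (chromosome 7) and Gm10231 (chromosome 17), which matched the shorter one at 100% identity over all of its 441 bases. The Atp5g1 transcripts fall into a short and a long class by their 3′ end. The short ones, 596 and 691 bases, shared 59.6% and 50.4% of their windows, mainly with the processed pseudogene Gm10039 (chromosome 11, 99.8% identity over 411 bases), and the long ones, 4715 and 4660 bases, shared 7.63% and 7.72%. Atp5g3 shared 0% in all 5 of its transcripts. None of these 3 pseudogenes has a row in the count table, and how multi-mapping reads were treated is not given in the sources used here, so the levels of Atp5g2, and to a lesser degree Atp5g1, are less certain than that of Atp5g3.

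**Figure D1:**
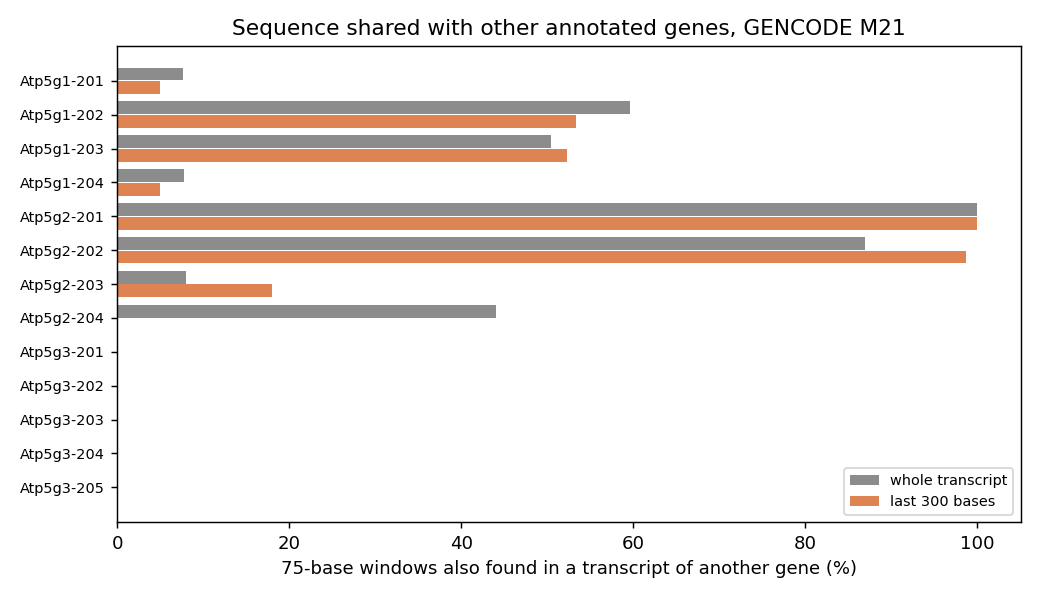
Share of the 75-base windows (percent, x axis) of each annotated transcript of the 3 genes (y axis) that also occur in a transcript of another gene, over the whole transcript (grey) and its last 300 bases (orange). The shortest Atp5g2 transcript reaches 100% on both measures, the shortest Atp5g1 transcript 59.6% and 53.3%, and all 5 Atp5g3 transcripts are at 0%.

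Atp5g1 (subunit isoform P1) stood at 248, 154, 159 and 172 normalized counts in WT replicates 1 to 4. It stood at 104 in the unnumbered Cd36KO library and 43.7, 37.8 and 76.3 in Cd36KO replicates 2 to 4. All 4 Cd36KO libraries lay below all 4 WT libraries, with 50.1 normalized counts between the lowest WT and the highest Cd36KO library. The means were 183 ± 44.0 and 65.4 ± 30.6 (SD, n = 4), and the fitted level was 2.801-fold lower in Cd36KO, a log2 fold change of -1.49 (DESeq2 estimate, SE 0.31). The raw counts were 135 to 275 in WT and 37 to 100 in Cd36KO, and the coefficient of variation between libraries (24.0% and 46.8%) was above that of counting alone (7.23% and 12.2%). The call by which the gene was chosen was not made by edgeR, by limma on the authors' log2 values, or with a skeletal muscle marker score as a covariate.

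Atp5g2 (isoform P2) stood at normalized counts of 9.03, 11.04, 11.8 and 6.92 in WT. In Cd36KO it had 12.3 in the unnumbered library and 20.7, 8.18 and 16.0 in replicates 2 to 4. The groups overlapped. The means were 9.69 ± 2.18 and 14.3 ± 5.34 (SD, n = 4), with a log2 estimate of 0.56 (SE 0.51). The whole gene rested on 7 to 21 reads per library, for which counting alone gives a coefficient of variation of 31.6% in WT and 26.3% in Cd36KO, against 22.5% and 37.4% between libraries. The difference in means was within the spread of the Cd36KO libraries.

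Atp5g3 (isoform P3) had normalized counts of 991, 1127, 1020 and 2018 in WT replicates 1 to 4. It had 977 in the unnumbered Cd36KO library and 972, 835 and 838 in Cd36KO replicates 2 to 4. The groups did not overlap, but only 14.1 normalized counts separated the lowest WT library from the highest Cd36KO library, and WT replicate 4 stood far above the other 3. The means were 1289 ± 489 and 906 ± 79.9 (SD, n = 4), with a log2 estimate of -0.51 (SE 0.23). Without WT replicate 4 the WT mean was 1046 ± 71.7 and the estimate -0.21 (SE 0.14), and with a white adipocyte marker score as a covariate it was 0.06 (SE 0.34). That score was 2.23 to 2.84 in Cd36KO, 4.15 to 4.37 in WT replicates 2 to 4 and 2.88 in WT replicate 1. It nearly follows the groups, so that fit can hardly separate it from genotype. Of the other 24 ATP synthase genes, 16 also had their highest WT value in WT replicate 4.

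**Figure D2:**
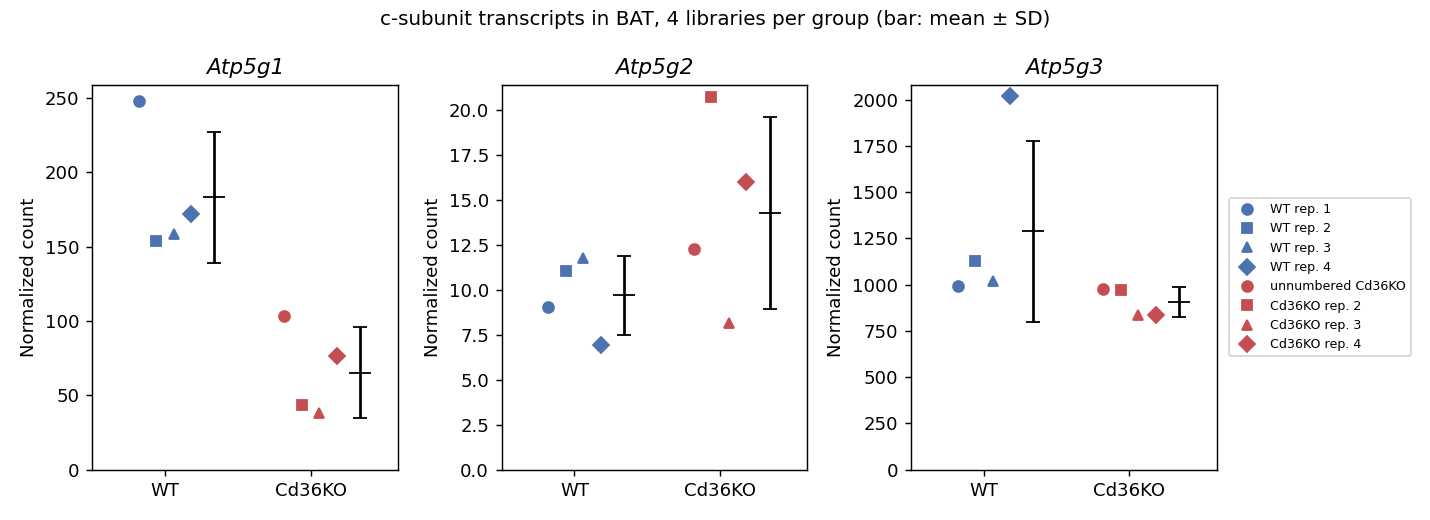
Normalized counts (y axis, linear from 0, a separate scale per gene) of Atp5g1, Atp5g2 and Atp5g3 in the 4 WT (blue) and 4 Cd36KO (red) libraries, with 1 symbol per library and the group mean ± SD in black. Atp5g1 shows a gap between the groups, the Atp5g2 groups overlap between 8.18 and 11.8, and the Atp5g3 difference is drawn mostly by WT replicate 4 at 2018.

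Of the 5528 genes that averaged at least 50 normalized counts, 3.96% had all 4 Cd36KO libraries below all 4 WT libraries and 6.91% had them all above. Atp5g1 and Atp5g3 belong to the first class and Atp5g2, below this minimum, to none. As Atp5g1 was chosen on this contrast, nothing is read from these counts.

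The level order of the 3 genes within a library was not itself used to choose them, but the 8 libraries pooled here include the Cd36KO libraries in which Atp5g1 was selected as low. Per kilobase of merged exon (4912 bases for Atp5g1, 1675 for Atp5g2, 2181 for Atp5g3), Atp5g3 had 503 ± 176 normalized counts, Atp5g1 25.3 ± 14.7 and Atp5g2 7.16 ± 2.69 (SD over the 8 libraries). Atp5g3 was above Atp5g2 in 8 of 8 libraries, by a mean log2 ratio of 6.16 ± 0.80. The unadjusted p was 0.00781 (exact two-sided sign-flip permutation test over libraries), the smallest that 8 libraries allow. Benjamini-Hochberg over 3 pairs gave 0.0117, a value that also takes in the p-values of both Atp5g1 pairs. Reads shared with the pseudogene copies could leave Atp5g2 undercounted in every library alike. The p-value does not measure such an undercount, and its size was not tested. The ratios to Atp5g1 are given with no p-value of their own. Atp5g3 was above Atp5g1 in 8 of 8 libraries, by 4.51 ± 0.85, with 3.95 ± 0.64 in WT and 5.08 ± 0.65 in Cd36KO. Atp5g2 was above Atp5g1 in 1 of 8 libraries, with a mean log2 ratio of -1.65 ± 1.29. By group the ratio of Atp5g2 to Atp5g1 was -2.69 ± 0.54 in WT, below 0 in all 4 libraries, and -0.60 ± 0.82 in Cd36KO, and the 1 library above 0 was Cd36KO replicate 2.

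The place of Atp5g3 at the top held for each length tried, and that of Atp5g2 at the bottom did not. When the longest transcript of each gene was used for the length, the log2 ratio of Atp5g2 to Atp5g1 was -0.55 ± 1.29, so these neighbours were not separated beyond the spread of the 8 libraries. With that length all 4 WT libraries were still below 0 (mean -1.60, from -2.13 to -1.11), and the 3 libraries above 0 were all Cd36KO (mean 0.49, from -0.43 to 1.57). Where along the transcript the reads lie is not stated, and the long 3′ ends of Atp5g1 and the pseudogene copies of Atp5g2 both enter this comparison. Without any length correction the 3 ratios were 3.34, 6.54 and -3.20.

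Summed over the 3 genes, WT BAT held 1482 ± 479 and Cd36KO BAT 985 ± 97.0 normalized counts of c-subunit transcript (SD, n = 4), a log2 ratio of -0.59, or -0.34 without WT replicate 4. The individual sums were 1248, 1292, 1190 and 2197 in WT. They were 1093 in the unnumbered Cd36KO library and 1037, 881 and 930 in Cd36KO replicates 2 to 4. Of the difference in means, Atp5g3 made up 77.2% and Atp5g1 23.7%, the small difference of Atp5g2 entering with the opposite sign. Without WT replicate 4 these shares were 54.4% and 47.1%. These values and those that follow on the pool include the contrast used to choose Atp5g1 and are given with no test.

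Against Atp5b, which encodes the catalytic β-subunit of F1, the summed c-subunit counts had a ratio of 0.339 ± 0.0620 in WT and 0.224 ± 0.0431 in Cd36KO (SD, n = 4). The ranges, 0.271 to 0.421 and 0.170 to 0.273, overlapped by WT replicate 1 and the unnumbered Cd36KO library.

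Within the pool, Atp5g1 made up 19.9%, 11.9%, 13.3% and 7.83% of c-subunit counts in WT replicates 1 to 4. It made up 9.48% in the unnumbered Cd36KO library and 4.22%, 4.30% and 8.20% in Cd36KO replicates 2 to 4. The groups overlapped: WT replicate 4 (exact Clopper-Pearson 95% interval 6.75% to 9.03%, counting error only) lay among the Cd36KO libraries. The group means were 13.2% ± 5.01 and 6.55% ± 2.70, a difference of -6.69 percentage points, and per kilobase 6.39% ± 2.61 and 3.02% ± 1.29. Atp5g3 supplied 79.4% to 91.9% of the pool in WT and 89.4% to 94.8% in Cd36KO, and Atp5g2 at most 1.998% in any library.

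Markers of other tissue differed between the libraries. The skeletal muscle list (16 genes, among them Acta1, Ckm, Myh4 and Ttn) summed to 418 to 29916 CPM in WT and 149 to 3059 CPM in Cd36KO. Of the 9619 genes tested by DESeq2, 1.42% were higher and 1.53% lower in Cd36KO at an adjusted p under 0.05, and 7.69% were higher and 7.88% lower at an unadjusted p under 0.05. All 16 muscle estimates were lower in Cd36KO, 0 passed DESeq2 (8 at an unadjusted p under 0.05, 0 by edgeR or limma), and Myh2, Actn3 and Pvalb were at 0 in at least 1 Cd36KO library. The mean log2 CPM of this list was 10.01, 7.63, 3.90 and 7.63 in WT replicates 1 to 4. It was 7.19 in the unnumbered Cd36KO library and 2.09, 1.44 and 4.92 in Cd36KO replicates 2 to 4. The order of the Cd36KO libraries by this score is their order by Atp5g1, and WT replicate 1 is highest in both. The other WT libraries did not follow it: WT replicate 3, with the lowest score of the group, had 159 normalized counts of Atp5g1, and WT replicate 2 had 154.

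With the muscle score as a covariate the Atp5g1 estimate went from -1.49 to -0.99, and without WT replicate 1, where the muscle list was highest, -1.30. The part of muscle in the Atp5g1 values was not tested beyond these fits. In bulk tissue, fewer cells of a type and less RNA per cell cannot be told apart.

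The white adipocyte list (12 genes, 8 of them tested) had 6 genes lower in Cd36KO, Lep, Hoxc8, Aldh1a1, Nnat, Agt and Nrip1, and 0 higher (DESeq2). Of all tested genes 1.42% were higher and 1.53% lower. With edgeR 0 were higher and 4 lower, and with limma 0 and 1. At an unadjusted DESeq2 p under 0.05, 0 were higher and 8 lower, against 7.69% and 7.88% of all tested genes. The list summed to 390 to 1774 CPM in WT and 252 to 379 CPM in Cd36KO. Hoxc10, Tcf21 and Wt1 were at 0 in all 8 libraries. The white adipocyte score (mean log2 CPM) was 2.88 in WT replicate 1, the lowest of the WT libraries where Atp5g1 was highest, 4.15 to 4.37 in the other WT libraries and 2.23 to 2.84 in Cd36KO. With this score as a covariate the Atp5g1 estimate was -1.71, in a fit that can hardly separate the score from genotype. The brown adipocyte list summed to 5631 to 7337 CPM in WT and 10368 to 11979 CPM in Cd36KO. Of its 11 tested genes 4 rose, Ucp1, Cidea, Cox7a1 and Cox8b, and 0 fell (DESeq2, against 1.42% and 1.53% of all tested genes; 7 higher and 1 lower at an unadjusted p under 0.05, 0 by edgeR or limma). The part of the brown adipocyte list in the Atp5g1 values was not tested.

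**Figure D3:**
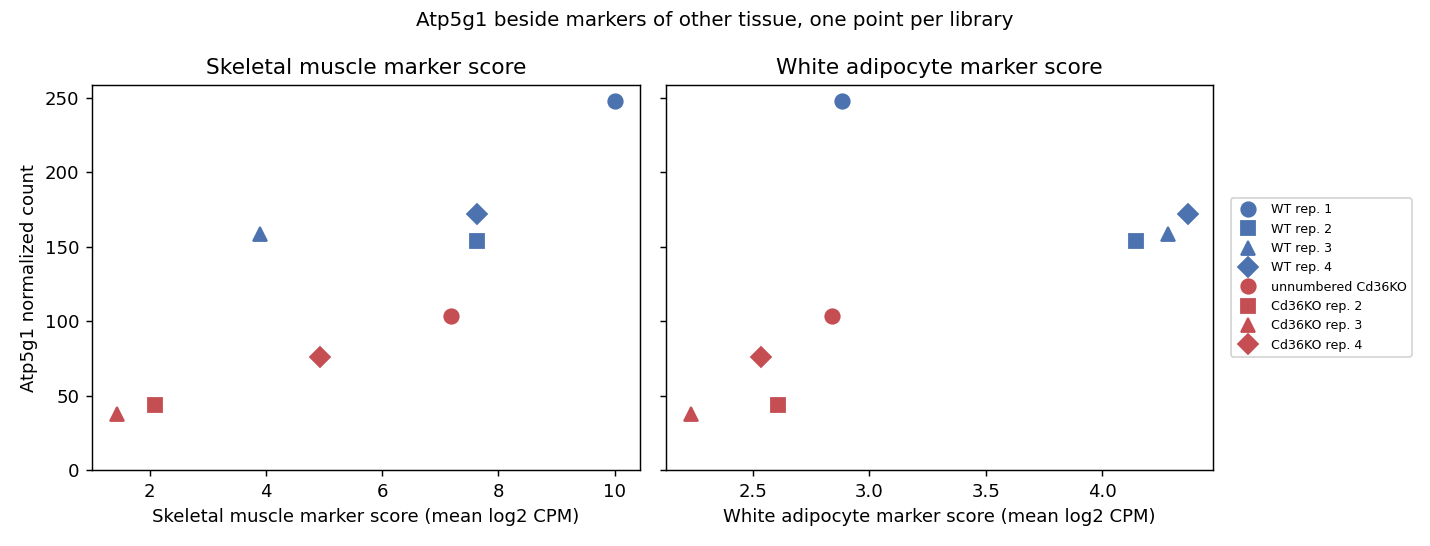
Atp5g1 normalized count (y axis) against the mean log2 CPM of the skeletal muscle list (left) and of the white adipocyte list (right), 1 point per library, WT in blue and Cd36KO in red. The Cd36KO points climb from 37.8 to 104 along the muscle score, and the 4 WT points lie at 154 to 248, with no such order among the lower 3.

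The rest of the enzyme went the other way or did not pass the test. Of the other 24 ATP synthase genes (F1 head, stalks, other membrane subunits, inhibitor and assembly factors), 4 rose and 0 fell in Cd36KO (DESeq2, Benjamini-Hochberg adjusted p under 0.05 over 9619 genes), against 1.42% of all tested genes higher and 1.53% lower. At an unadjusted p under 0.05, 10 were higher and 1 lower, against 7.69% and 7.88% of all tested genes. Of their estimates 21 were above 0, with a median of 0.24 against -0.01 for all tested genes. Of the 20 with a mean of at least 50 normalized counts, 7 had all Cd36KO libraries above all WT libraries. Across all genes with that mean, 6.91% lay above in this way and 3.96% below. The direction of OXPHOS genes was part of the choice of the 3 members, so these counts are not independent of it.

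The count of 4 rested on single libraries and on the tool. It was 1 without WT replicate 1, 0 without WT replicate 2 (10 at an unadjusted p under 0.05), 1 without WT replicate 3, 8 without WT replicate 4, 0 without the unnumbered Cd36KO library (8 unadjusted), and 1 without Cd36KO replicate 3 or 4. edgeR and limma called 0, with 10 each at an unadjusted p under 0.05.

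In the membrane part, next to the c-ring, 3 of 7 genes passed, all higher, against 1.42% of all tested genes higher and 1.53% lower. At an unadjusted DESeq2 p under 0.05, 5 were higher and 0 lower (7.69% and 7.88% of all tested genes). With edgeR and limma 0 passed. Atp5l (subunit g) went from 90.1 ± 14.5 normalized counts in the WT group to 149 ± 18.6 in the Cd36KO group (SD, n = 4, log2 fold change 0.73, DESeq2 adjusted p = 0.0271). Atp5k (subunit e) was at 5335 ± 1023 and 8194 ± 1613 (0.62, DESeq2 adjusted p = 0.0497). Atp5j2 (subunit f) was at 6133 ± 466 and 8755 ± 1115 (0.51, DESeq2 adjusted p = 0.0200). These 3 genes encode small subunits beside the ring. In each the 4 Cd36KO libraries lay above the 4 WT libraries, as in 6.91% of genes averaging at least 50 normalized counts. Subunit a, the proton channel that faces the ring, is encoded in mitochondrial DNA by mt-Atp6, whose estimate was 0.59 (DESeq2 adjusted p = 0.0634), and mt-Atp8, which overlaps it, had 5 to 16 reads per library and an estimate of 0.19.

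In the peripheral stalk, which holds the F1 head still, Atp5o (the oligomycin sensitivity-conferring subunit) rose from 4108 ± 810 to 7034 ± 1446 normalized counts (log2 fold change 0.78, DESeq2 adjusted p = 0.00675). The other 3 stalk genes did not pass: Atp5h (subunit d) had an estimate of 0.50, Atp5f1 (subunit b) 0.29 and Atp5j (coupling factor 6) -0.77. Of all tested genes 1.42% were higher and 1.53% lower, and edgeR and limma called 0 stalk genes. Atp5j, at 131 ± 49.9 and 76.6 ± 20.7 normalized counts, overlapped between groups and was the 1 gene lower at an unadjusted p under 0.05.

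None of the 5 F1 genes passed (1 at an unadjusted p under 0.05, where 7.69% of all tested genes were higher, and 0 by edgeR or limma). The catalytic and structural Atp5b and Atp5a1 had estimates of 0.04 and 0.23, and the central stalk genes that sit on the c-ring, Atp5c1 (γ), Atp5d (δ) and Atp5e (ε), 0.05, 0.46 and 0.11. Atpif1, the inhibitor of ATP hydrolysis, had -0.27. Of the 7 assembly genes 0 passed (2 higher at an unadjusted p under 0.05, 0 by edgeR or limma). Tmem70 and Tmem242, which help to build the c-ring, had 0.20 and 0.44.

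**Figure D4:**
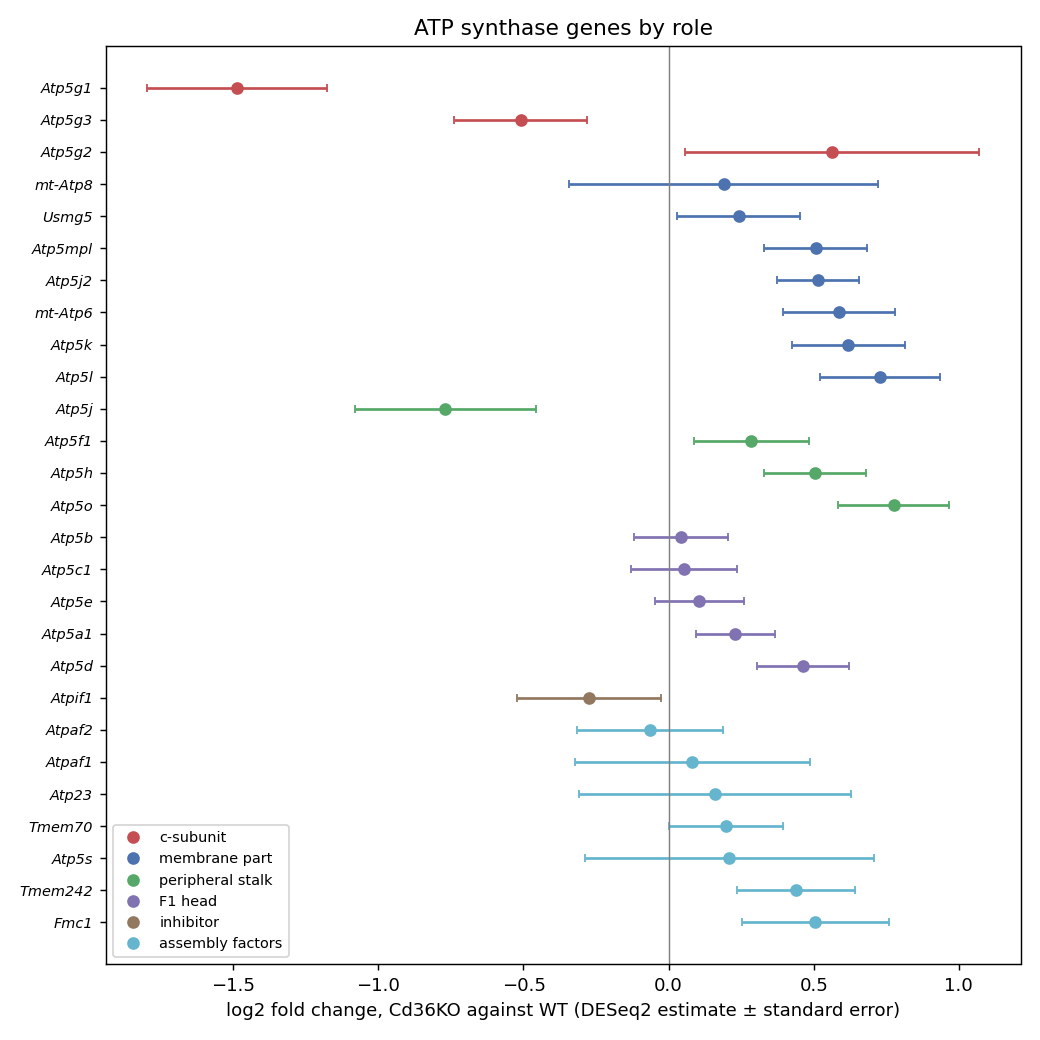
DESeq2 log2 fold changes (x axis, Cd36KO against WT, ± standard error, n = 4 per group) of the 27 ATP synthase genes (y axis), coloured by role in the enzyme. Of the c-subunit genes, Atp5g1 (-1.49) and Atp5g3 (-0.51) lie left of 0, and the 7 other membrane subunits lie right of it, from 0.19 for mt-Atp8 to 0.73 for Atp5l.

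Set among 91 nuclear and mitochondrial genes (the 27 of ATP synthase and 64 nuclear subunit genes of complexes I to IV), Atp5g1 had the 2nd lowest estimate, Atp5j the 3rd and Atp5g3 the 4th, while Atp5g2 ranked 76th. The lowest was Cox6a2, the striated muscle and BAT isoform of a cytochrome c oxidase subunit, at -2.79 (SE 1.61), whose WT libraries spread from 9.41 to 1148 normalized counts. Of the 64 genes 16 rose and 0 fell (DESeq2; 1.42% of all tested genes rose and 1.53% fell), with a median of 0.41. At an unadjusted p under 0.05, 40 were higher and 0 lower (7.69% and 7.88% of all tested genes), and edgeR and limma called 0. The estimates were 0.82 for Ndufa5 of complex I, 0.78 for Sdhb of complex II, 0.80 for Uqcr10 of complex III and 0.68 for Cox7a2 of complex IV. This ranking and these counts restate the observation by which the 3 members were chosen and are given as a description. The number called was 1 without WT replicate 2, 4 without WT replicate 3, 42 without WT replicate 4, 3 (2 higher and 1, Cox6a2, lower) without the unnumbered Cd36KO library, 7 without Cd36KO replicate 3 and 4 without Cd36KO replicate 4.

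The genes whose centred log2 levels over the 8 libraries lay closest to Atp5g1 were Aldh1a1, a retinaldehyde dehydrogenase that is also in the white adipocyte list (root mean square difference 0.385), Tacc2 (0.435), Fsd2, a striated muscle gene (0.479), Maf, a transcription factor (0.509), and Serpinf1 (0.526). The median over 5527 genes was 0.969. Aldh1a1 had 84.2 ± 22.6 normalized counts in the WT group and 23.9 ± 9.61 in the Cd36KO group. Closest to Atp5g3 were Mfsd1 (0.0813), Myl6 (0.115) and Pon2 (0.134), with WT SDs of 51.8, 125 and 37.9 around means of 138, 332 and 117. For Atp5g2 the list was Ifi203, Agtrap and Tppp (0.244 to 0.269), against counts too low to order libraries. These are likenesses over 8 points that share the 2 groups and the size factors.

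The genomic surroundings of the 3 genes differ. Within 500 kb, Atp5g1 has 25 protein-coding genes, 10 of them Hoxb genes. Of the 9 tested, Gngt2, 223 kb away, rose from 187 ± 27.0 to 386 ± 65.5 normalized counts (log2 fold change 1.04, DESeq2 adjusted p = 4.11e-05), and 0 fell. Of all tested genes 1.42% were higher and 1.53% lower. The nearest neighbours, Ube2z at 3.46 kb and Snf8, had estimates of 0.07 and -0.02. Atp5g2 has 33 neighbours, 9 of them Hoxc genes. Of the 17 tested Hoxc8, at 318 kb and also in the white adipocyte list, fell from 205 ± 108 to 24.4 ± 14.4 (-3.08, DESeq2 adjusted p = 5.58e-08), and 0 rose. Of the 4 neighbours of Atp5g3, 3 were tested and 0 passed, the nearest tested being Atf2 at 0.03. Single calls among so few tested genes are not read as a trait of a locus.

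The promoters of the 3 genes are shown because the genes share a product but differ in level, and the windows hold different sets of the motifs searched. The sequences are the RefSeq windows of GRCm38.p6 on the minus strand, 300 bases each and written 5′ to 3′ in the direction of transcription, at chr11:96075582-96075881 for Atp5g1, chr15:102670998-102671297 for Atp5g2 and chr2:73911277-73911576 for Atp5g3. Capitals mark CCAAT boxes, the core of the NRF1 site (CGCNTGCG) and the ERR element (TNAAGGTCA), on either strand.
Atp5g1: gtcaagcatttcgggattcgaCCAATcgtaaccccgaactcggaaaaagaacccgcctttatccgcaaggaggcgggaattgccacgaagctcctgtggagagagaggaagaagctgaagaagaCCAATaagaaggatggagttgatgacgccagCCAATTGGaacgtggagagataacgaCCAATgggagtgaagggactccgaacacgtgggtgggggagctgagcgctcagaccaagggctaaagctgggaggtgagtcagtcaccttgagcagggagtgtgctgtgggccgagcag
Atp5g2: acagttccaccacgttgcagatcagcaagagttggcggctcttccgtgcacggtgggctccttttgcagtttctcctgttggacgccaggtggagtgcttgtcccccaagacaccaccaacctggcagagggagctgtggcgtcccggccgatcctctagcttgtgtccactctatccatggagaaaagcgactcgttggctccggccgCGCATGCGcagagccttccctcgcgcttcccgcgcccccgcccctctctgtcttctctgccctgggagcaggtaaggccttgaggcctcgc
Atp5g3: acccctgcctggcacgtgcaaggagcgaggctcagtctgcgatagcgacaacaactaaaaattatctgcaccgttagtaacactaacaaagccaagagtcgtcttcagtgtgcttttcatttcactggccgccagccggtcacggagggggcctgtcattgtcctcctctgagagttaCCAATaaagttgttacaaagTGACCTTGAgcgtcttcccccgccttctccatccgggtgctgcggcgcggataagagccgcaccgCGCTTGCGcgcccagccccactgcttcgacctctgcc

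The Atp5g1 window held 5 CCAAT boxes over both strands, 2 of which overlap as the palindromic run in capitals, against 0 for Atp5g2 and 1 for Atp5g3, and 37.4% of 32851 mouse promoter windows held at least 1. The core of the site of NRF1, a regulator of nuclear OXPHOS genes, occurred in Atp5g2 and Atp5g3 (8.21% of windows) and the ERR element in Atp5g3 (1.28%). A GC box (GGGCGG) occurred in Atp5g2 (35.7% of windows) and an E-box (CACGTG) in Atp5g1 and Atp5g3 (7.15%). GC content was 55.3%, 63% and 57%, against a median of 52.7%. The motifs were chosen after the sequences were seen, and a match describes the letters in the window and not a bound site.

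**Figure D5:**
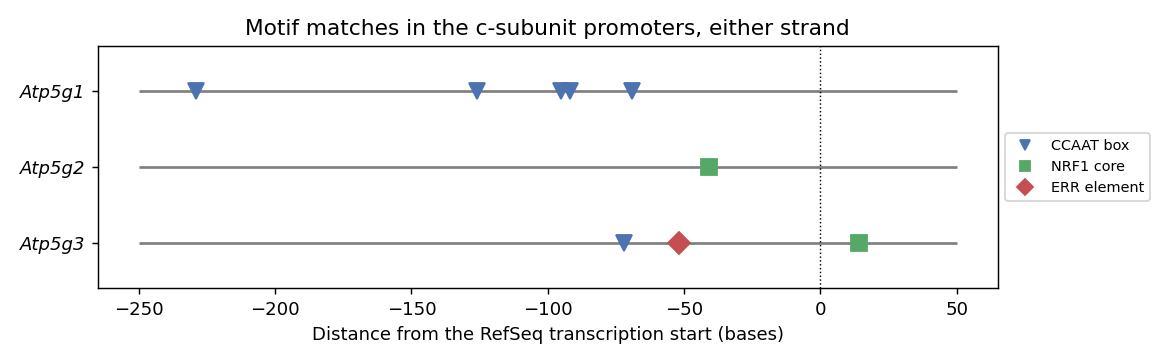
Positions of CCAAT box, NRF1 core and ERR element matches on either strand (x axis, bases from the RefSeq transcription start) in the promoter windows of the 3 genes (y axis). Atp5g1 has 5 CCAAT boxes between -229 and -69, Atp5g2 an NRF1 core at -41, and Atp5g3 a CCAAT box at -72, an ERR element at -52 and an NRF1 core at 14.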

How the data were processed

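Libraries were made by a digital mRNA-seq service from 50 ng of total RNA and sequenced as single-end reads of 75 bases. The methods state bbduk for trimming, STAR for alignment and HTSeq-count for counting by the authors, whereas the labels name Trimmomatic, HISAT2 and DESeq2 with GRCm38; the conflict is unresolved, and strand and multi-mapping settings are not given in the sources used here. The deposited counts are whole numbers per gene, not normalized. The authors also deposited log2 values, checked here to equal log2 of the count over its size factor plus 1, and used only for an alternative limma test.

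DESeq2 1.42.0 (R 4.3.3) was fitted as genotype on all 8 libraries and the 17367 of 31053 genes with any count. Its own filtering and a Benjamini-Hochberg threshold of 0.05 were used, following the study's use of DESeq2. Its test was checked on simulated data with 200 changed genes. CPM values were counts over the library's total counts, scaled to a common total. Alternatives were edgeR 4.0.16, limma 3.58.1, TMM factors, 10 counts in 4 libraries, no independent filtering, muscle or white adipocyte score as covariates, a replicate block and each library left out. Symbols came from GENCODE M21 (31011 identifiers matched, 42 did not) and promoters from RefSeq (all 3 matched). The members, the gene lists and the tests were chosen with earlier results of these data known. Named were the 3 members, ATP synthase and OXPHOS genes past the threshold or touching the c-ring, Cd36, neighbours past the threshold, the 5 or 3 genes most like a member, with a mean of at least 50 normalized counts, and sequence copies. Other genes named (complex I to IV examples, Cox6a2, Atp5j) were chosen after their values were seen.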

Additional observations from a re-analysis of the deposited data

Results flagged for a closer look

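Among 74 groups of 4 libraries examined with Dixon's test, 6 had a library far from the other 3, where chance gives about 1 in 20, or 3.70. Atp5g3 in WT replicate 4 had 2018 normalized counts against 991 to 1127 in the other WT libraries. The summed c-subunit counts of the same library were 2197 against 1190 to 1292. Atp5o in WT replicate 4 had 5319 against 3645 to 3810. Atp5k in WT replicate 1 had 3809 against 5746 to 6002. Atp5j in the unnumbered Cd36KO library had 45.7 against 85.4 to 89.0 in the other Cd36KO libraries. The skeletal muscle list in WT replicate 1 summed to 29916 CPM against 418 to 5145.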

How the results depend on the processing

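The Atp5g1 estimate stayed below 0 in all 16 alternatives, from -1.78 to -0.99, and that of Atp5g2 above 0 in 16, from 0.34 to 0.78. As Atp5g1 was chosen as low in Cd36KO and its groups do not overlap, its sign could hardly change and is no check. The call by which it was chosen was not made in 3 of 17 settings. The Atp5g3 estimate stayed below 0 in 15 of 16 and was 0.058 with the white adipocyte score, which nearly follows the groups, as a covariate. The summed log2 ratio ranged from -0.68 to -0.34 with each library left out, and the Atp5g1 share difference from -8.49 to -4.48 points, or -3.37 per kilobase. Atp5g3 stayed above both others under each length and with each library left out, while the ratio of Atp5g2 to Atp5g1 was -0.55 with the longest transcript, within its spread over libraries. The shortest complete coding transcript, a length added after seeing the data, gave -2.76.

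Counts of calls moved most. Across all genes, 284 calls (137 higher, 147 lower) became 14 (4 higher, 10 lower) with edgeR, 8 (4 and 4) with limma, 171 (73 and 98) with independent filtering off, 589 (469 higher, 120 lower) with the white adipocyte score, and 69 to 507 with each library left out. The other ATP synthase genes called, 4, became 0 with edgeR, 0 with limma, 1 with the muscle score, 7 with the white adipocyte score, and 0 to 8 with each library left out. The 16 nuclear OXPHOS genes became 0 with edgeR, 0 with limma, 9 with independent filtering off, 6 with the muscle score, 25 with the white adipocyte score, and 1 to 42 with each library left out, all of them higher except Cox6a2 without the unnumbered Cd36KO library. The cause of these moves was not tested.

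Replicate numbers are shared by 3 pairs, whose deviations correlated at -0.055, 0.23 and 0.098. Unmatched pairs were not compared, so these values cannot tell whether a shared number marks a shared batch. The replicate block called 0 ATP synthase and 3 OXPHOS genes (2 higher and 1, Cox6a2, lower; 6 and 24 at an unadjusted p under 0.05) and 219 in all (32 higher, 187 lower). The same 6 libraries with no block, an alternative chosen after seeing the data, gave 0, 2 (both higher) and 262 (48 higher, 214 lower), and the Atp5g1 estimate was -1.66 with the block and -1.60 without it. Depth limits Atp5g2, with 98 reads over all 8 libraries.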
